A study of Homo sapiens with 4 samples.

Results

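The genes described here regulate membrane trafficking, and they were taken by symbol from a table of cassette exons in HEK293T cells with and without the splicing factor RBFOX2. A cassette exon is one that a transcript either joins to both neighbouring exons or skips, and the table lists 1 event for each combination of such an exon with a pair of neighbours. The symbol rule took RAB genes with a number, RABGAP, TBC1D, numbered VPS, SNX, EXOC, ASAP, ACAP and AGAP genes, ARFGAP, ARFGEF, GIT1 and GIT2. It found 436 events at 400 exons of 139 genes, out of 31408 events at 27483 exons of 9172 gene identifiers. The rule goes by letters alone: it also took VPS9D1-AS1, an antisense RNA gene, and VPS72, a nuclear subunit of chromatin remodelling complexes, and neither had a passing exon.

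The study sequenced total RNA, depleted of ribosomal RNA and prepared with strand information, from 4 clones: 2 wild type and 2 RBFOX2 knockout by PCR genotype. HEK293T is a human embryonic kidney line. Cells received the Cas9 plasmid PX459 and the plasmid pgRGFP with guide RNAs on either side of RBFOX2, and every library came from a clone grown from 1 sorted cell. Each genotype therefore rests on 2 clones, and the spread between clones of 1 genotype cannot be judged from the values used here. The knockout clones served to find exons that RBFOX2 regulates, for comparison with maps of its binding on RNA.

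The table numbers its 2 sets of libraries without naming a genotype, so no library's own value is given here. Results are given as the authors' own comparison: a difference in inclusion (first set less second set) with its p-value and the false discovery rate, or FDR. Inclusion here means the length-corrected share of junction reads that contain the exon, from 0 to 1. The order of subtraction follows the usual rMATS convention, since the header does not spell it out, and no direction below is a gain or loss upon knockout. No depth, replicate spread or interval is given for a single difference. The table holds no gene levels, so markers of the cell line could not be read from it, and it lists 0 events of RBFOX2 itself.

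Rab and Arf proteins are small GTPases that switch between a GTP-bound form on membranes and a GDP-bound form, and in the bound state they recruit coats, motors and tethers. Exchange factors such as the ARFGEF proteins load GTP, while TBC1D proteins act on Rabs and ARFGAP, ASAP, ACAP, AGAP and GIT proteins act on Arfs to speed GTP hydrolysis. Most VPS proteins build endosomal sorting and tethering complexes, sorting nexins (SNX) bind endosomal lipids, and the exocyst (EXOC) tethers secretory vesicles at the plasma membrane. RBFOX2 binds the letters GCATG, in DNA spelling, in introns near cassette exons and can raise or lower their inclusion.

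Of the 400 exons, 20 in 17 genes passed 2 limits, an FDR below 0.05 and a difference of 0.1 or more in either direction. That is 5% of the members' exons, beside 5.73% over all exons of the authors' deposited table, so the share called was close to the background. By event, 20 of 436 passed (4.59%, beside 5.15% of the table's events). The first set had the higher inclusion at 11 of the 400 exons (2.75%, beside 3.08% of all exons), and the second set at 9 (2.25%, beside 2.65% of all exons). An unadjusted p-value under 0.05 was listed for 42 member events (9.63%, beside 12% of the table's events). The median absolute difference of the 20 exons was 0.338, beside 0.271 for all passing exons of the authors' deposited table.

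**Figure D1:**
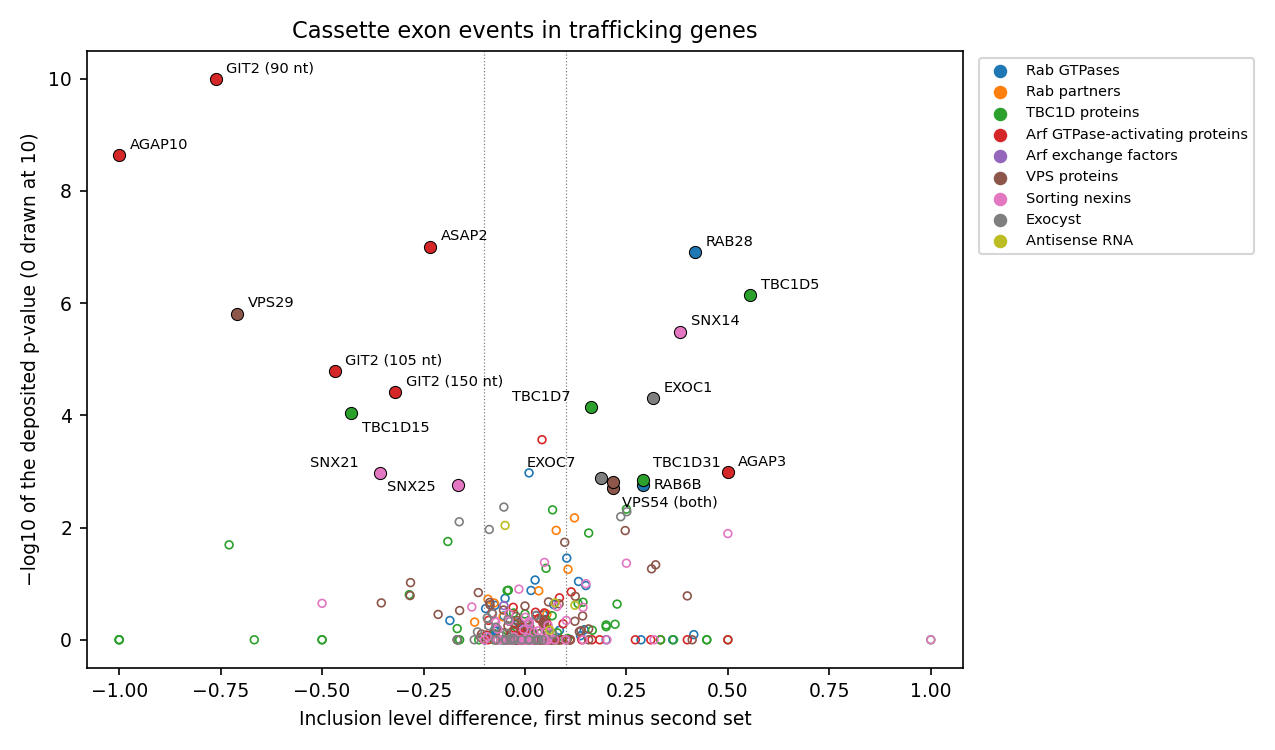
Each circle is 1 of the 436 events, placed by its inclusion level difference (first minus second set, no unit) and the −log10 of the deposited p-value; filled circles passed, open ones did not, colours mark the group of genes, dotted lines mark a difference of 0.1 in either direction, and a p-value of 0 is drawn at 10. The 90-nt exon of GIT2 is highest, at -0.762, and many events with large differences lie at the bottom with a p-value of 1.

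Matching by exon length and both neighbouring intron lengths placed 17 of the 20 exons in GENCODE 29 transcripts. Of these, 13 lie wholly within a coding sequence, 8 of them with a length divisible by 3 and no in-frame stop codon. Printed here are 9 of the 13 coding exons, chosen to show what inclusion adds to a transcript. Sequences are from the matched GENCODE 29 transcripts, 5′ to 3′ on the transcript strand, and positions are those of the table, whose build the submitters' processing notes name as hg19. Capitals in the longer GIT2 exon mark the 45 bases that a shorter form of the same exon lacks, and capitals in EXOC7 mark GCATG. The first 7 add whole codons when included; the last 2, of SNX21 and RAB6B, change the reading frame when skipped.
GIT2, 90 nt, chr12:110383065-110383154, minus strand: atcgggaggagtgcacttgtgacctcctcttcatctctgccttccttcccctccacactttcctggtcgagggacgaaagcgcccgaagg
GIT2, 150 nt, chr12:110388972-110389121, minus strand: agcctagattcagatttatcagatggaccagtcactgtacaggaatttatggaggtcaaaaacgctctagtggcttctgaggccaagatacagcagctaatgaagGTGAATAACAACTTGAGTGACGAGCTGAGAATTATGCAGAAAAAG
ASAP2, 135 nt, chr2:9531191-9531325, plus strand: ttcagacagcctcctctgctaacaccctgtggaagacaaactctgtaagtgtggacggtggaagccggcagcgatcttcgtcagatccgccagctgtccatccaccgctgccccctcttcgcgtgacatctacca
TBC1D7, 81 nt, chr6:13325326-13325406, minus strand: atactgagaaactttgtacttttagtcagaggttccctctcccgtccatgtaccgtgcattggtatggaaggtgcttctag
SNX14, 27 nt, chr6:86248556-86248582, minus strand: aggtagcctaagtttggatgattttcg
EXOC1, 45 nt, chr4:56755054-56755098, plus strand: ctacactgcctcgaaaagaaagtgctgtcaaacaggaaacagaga
EXOC7, 69 nt, chr17:74086410-74086478, minus strand: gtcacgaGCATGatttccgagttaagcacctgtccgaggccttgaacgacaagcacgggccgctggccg
SNX21, 11 nt, chr20:44469087-44469097, plus strand: acaaacctcag
RAB6B, 59 nt, chr3:133583428-133583486, minus strand: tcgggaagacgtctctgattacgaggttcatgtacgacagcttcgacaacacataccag

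The Arf GTPase-activating proteins held the most calls of any group, 6 of 57 exons (10.5%, beside 5.73% over the table). Of the 6, 3 are among the 5 exons of GIT2, a gene named in the rule, so the group's share depends on GIT2. Of the 6, 5 had the higher inclusion in the second set. GIT2 activates GTP hydrolysis on Arfs and is a scaffold at focal adhesions and endosomes. Its 90-nt exon, the 16th of 20 in the longest matched transcript, had a difference of -0.762 and both its p-value and its FDR are 0 in the authors' deposited table, as listed. This exon adds 30 codons, and GENCODE 29 lists 4 protein-coding transcripts that skip it.

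Further 5′ in GIT2, another exon was listed in 2 lengths, 105 and 150 nt, which share their first base and differ in where they end. The authors' deposited table gave the 105-nt form -0.469 (FDR 0.000688). For the 150-nt form it gave -0.32 (FDR 0.00142). The 45 bases that only the longer form holds begin with GT, the letters that usually open an intron, so the shorter form ends directly before a GT. The 150-nt form matched 3 coding transcripts and the 105-nt form matched none. Both forms share the junction to the exon before them, so they are not independent calls. Between this exon and the 90-nt exon lies 1 further exon of 249 nt.

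All 3 GIT2 exons were more included in the second set, while the other 2 GIT2 events, at exons of 46 and 134 nt, were listed at 0.04 and 0.032 with a p-value of 1. The paralog GIT1 had 6 events, each with a p-value of 1, and its differences ran from 0.017 to 0.272 in the authors' deposited table. Whether GIT1 and GIT2 differ was not tested, and a p-value of 1 does not show that GIT1 inclusion was equal.

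**Figure D2:**
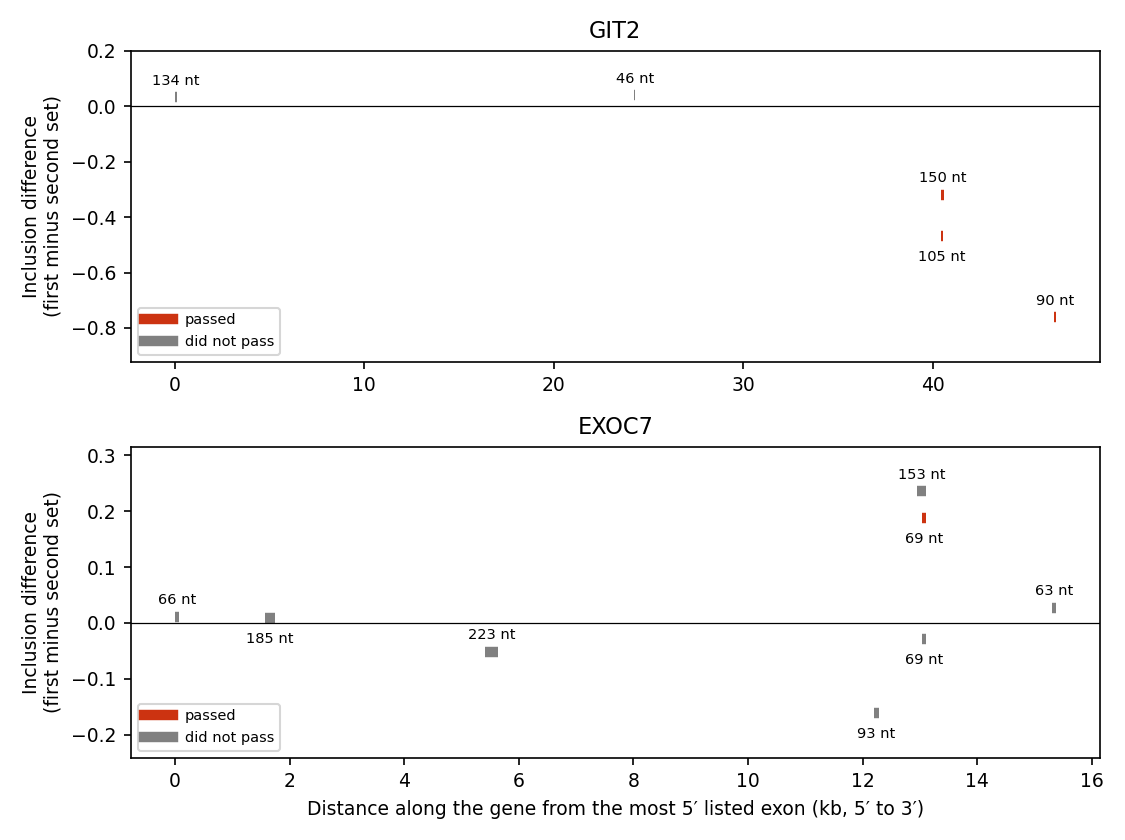
Inclusion level difference (first minus second set) of every listed event of GIT2 and EXOC7 against the distance along the gene in kb from its most 5′ listed exon; bar width is the exon length to scale, bar height has no meaning, and red marks events that passed. In GIT2 the 3 passing exons are the most 3′ of those listed, at -0.32, -0.469 and -0.762, and in EXOC7 the 69-nt exon appears in 2 events, at 0.188 and -0.029.

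ASAP2 carries Arf-directed GTPase-activating, ankyrin repeat and SH3 domains and acts at focal adhesions. Its 135-nt exon, the 23rd of 28, was listed at -0.233, FDR 8.66e-06, per the authors' deposited table. It adds 45 codons. The remaining 2 ASAP2 events had a p-value of 1, with differences of 0.31 and 0.062.

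AGAP proteins combine an Arf-directed domain with a GTPase-like domain. A 101-nt exon of AGAP10 (chr10:47200161-47200261, minus strand) was at -1 (FDR 3.44e-07), the full range of the scale, in the authors' deposited table. The gene identifier belongs to a gene now named AGAP9. AGAP genes of this type exist in near-identical copies, so reads at this exon may be shared between copies, and its call is uncertain. The gene that the table itself calls AGAP9, at another place on the chromosome, has an exon of the same length (chr10:48229091-48229191, plus strand) with neighbouring introns of 7551 and 2587 nt, beside 7550 and 2587 nt in AGAP10. That exon was listed at 0.111 with a p-value of 1 in the authors' deposited table, against -1 for AGAP10. A 135-nt exon of AGAP3 (chr7:150815297-150815431, plus strand) was listed at exactly 0.5 (FDR 0.0215), in the opposite direction to the other Arf group calls. Neither exon matched a GENCODE 29 transcript. The other 9 AGAP3 events did not pass, with differences from -0.081 to 0.048.

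ASAP1, a close relative of ASAP2, had 1 event that met the FDR limit but not the minimum difference. Its 171-nt exon was at 0.042 (FDR 0.00722) in the authors' deposited table. The Arf exchange factors ARFGEF1 and ARFGEF2 had 5 exons and 0 calls by the authors' rMATS test, beside 5.73% of exons over the table. An unadjusted p-value under 0.05 was listed for 0 of their 5 events, beside 12% of the table's events, and their lowest p-value was 0.245.

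Among the Rab GTPases, 2 of 55 exons passed (3.64%, beside 5.73% over the table), and both were higher in the first set. RAB28 is a farnesylated Rab of cilia and photoreceptors whose transcripts encode alternative C-termini. Its 95-nt exon (chr4:13371495-13371589, minus strand) was at 0.419 (FDR 1.04e-05) in 1 of 3 events of the authors' deposited table. Both other events of this exon had a p-value of 1 and differences of the same sign, 0.364 and 0.334. Each of them shares a junction with the event that passed, so the 3 events are not independent. In 2 matched transcripts the coding sequence ends inside this exon, after 87 of its 95 bases. In another it falls in the 3′ UTR.

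RAB6B is a Golgi Rab that is most abundant in neurons. Its 59-nt exon, the 2nd of 9, was listed at 0.291, FDR 0.0327, per the authors' deposited table. It is coding, and GENCODE 29 lists 1 coding transcript without it. RAB5B, an early endosome Rab, met the FDR limit at a 103-nt exon (FDR 0.0219) with a difference of 0.01. With another downstream neighbour the same exon was at 0.2 and did not pass. RAB34 had the most events of any member, 13 at 9 exons, and 0 passed the authors' rMATS test, beside 5.73% of exons over the table. None had an unadjusted p-value under 0.05, beside 12% of the table's events, and 0.243 was the lowest.

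The Rab partners (RAB3GAP, RAB3IP, RAB11FIP and RABGAP genes) had 20 exons and 0 calls by the authors' rMATS test, beside 5.73% of exons over the table. Of their 20 events, 2 had an unadjusted p-value under 0.05, beside 12% of the table's events. The lowest p-value among them, 0.00671, belonged to a 94-nt exon of RAB11FIP3 with a difference of 0.122 and an FDR of 0.0916.

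TBC1D proteins, the Rab-directed GTPase-activating proteins, had 4 passing exons of 81 (4.94%, beside 5.73% over the table), 3 of them higher in the first set. TBC1D5 is a RAB7 regulator that binds the retromer complex. Its 118-nt exon (chr3:17664140-17664257, minus strand) lies in the 5′ UTR and was at 0.555 (FDR 4.86e-05) in the authors' deposited table. TBC1D7 is a subunit of the TSC complex with TSC1 and TSC2. An 81-nt coding exon of TBC1D7 was listed at 0.163 (FDR 0.00241), and it adds 27 codons. Of all 20 passing exons this was the smallest difference.

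TBC1D15 acts on RAB7 at mitochondria and lysosomes. A 92-nt exon (chr12:72255185-72255276, plus strand) of this gene, at -0.428, FDR 0.00292, per the authors' deposited table, was the 1 TBC1D call that was higher in the second set. The matched transcript starts its coding sequence inside this exon, so that 38 bases are 5′ UTR and 54 are coding. TBC1D31, a centrosomal member of the family, had a coding 134-nt exon (chr8:124132295-124132428, plus strand) at 0.291 (FDR 0.0272). Its length is not divisible by 3, and the 1 annotated transcript that skips it is not protein-coding. A second TBC1D31 exon, of 195 nt, was at 0.25 and fell short (FDR 0.0694).

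VPS proteins had 3 calls at 84 exons (3.57%, beside 5.73% over the table), 1 of 15 exons in the retromer (6.67%) and 2 of 14 in GARP (14.3%). The 2 GARP calls are 2 lengths of 1 VPS54 exon. VPS29 is a core subunit of the retromer, which returns receptors from endosomes. Its 40-nt exon (chr12:110936625-110936664, minus strand) lies in the 5′ UTR of the matched coding transcripts and was listed in 4 events that differ in the neighbouring exons. The event that passed was at -0.709 (FDR 9.3e-05) in the authors' deposited table. With other neighbours the same exon was at -0.282, -0.115 and 0.412, with p-values of 0.0957, 0.144 and 1 from the authors' rMATS test. The listed size and sign thus varied with the pair of neighbours, but only 1 of the 4 events passed. Whether the events differ from each other was not tested.

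VPS54 belongs to the GARP complex, which tethers endosome-derived vesicles at the trans-Golgi. An exon of this gene was listed in 2 lengths with a common 3′ end, 242 nt (chr2:64208780-64209021, minus strand) and 206 nt (chr2:64208780-64208985). Both were at 0.218 in the authors' deposited table, with FDRs of 0.0294 and 0.035, the latter the highest FDR among the passing exons. They share a junction and are not independent. Both are coding and not divisible by 3, and no transcript of GENCODE 29 skips either. Exons of the CORVET and HOPS tethers (25), the ESCRT machinery (12) and the other VPS proteins (18) gave 0 calls by the authors' rMATS test, beside 5.73% of exons over the table. In each of these 3 groups, of 28, 12 and 20 events, 1 event had an unadjusted p-value under 0.05, beside 12% of the table's events. The lowest p-values there were 0.0183 for VPS41, 0.0461 for VPS28 and 0.0113 for VPS13B.

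Sorting nexins had 3 calls at 69 exons (4.35%, beside 5.73% over the table). SNX14 is an endoplasmic reticulum protein involved in lipid droplets and lysosome function. Its 27-nt exon, the shortest passing exon that keeps the frame, adds 9 codons and was at 0.383, FDR 0.000174, per the authors' deposited table. The other 5 SNX14 events ranged from -0.093 to 0.018 and did not pass.

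SNX21 is an early endosome nexin. Its 11-nt exon was at -0.356 (FDR 0.0219) in the authors' deposited table. With the upstream neighbour ending at another site, the same 11 nt were listed at 0 with a p-value of 1. A 137-nt form that contains these 11 nt and shares their 3′ end was at -0.1 and did not pass. Because the shorter exon has only 11 nt, its inclusion reads could fall on 105 effective positions, the fewest of any member. Exons of 94 nt or more had 188. SNX25, a nexin with an RGS domain, had a coding 132-nt exon (chr4:186241887-186242018, plus strand) at -0.166 (FDR 0.0327). It adds 44 codons, and no annotated transcript skips it.

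The exocyst had 2 calls at 27 exons (7.41%, beside 5.73% over the table), both in subunits that bind the plasma membrane lipid PI(4,5)P2 and both higher in the first set. EXOC1, the yeast Sec3 homolog, had a 45-nt exon, the 11th of 19, at 0.315, FDR 0.00179, per the authors' deposited table. It adds 15 codons. The other 3 EXOC1 events were between -0.088 and 0.043 and did not pass.

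EXOC7, the Exo70 homolog, had 8 events at 7 exons. The 69-nt exon passed at 0.188 (FDR 0.0258) in the authors' deposited table when its upstream neighbour was a 93-nt exon, itself a cassette. With a neighbour further upstream it was at -0.029 with a p-value of 0.947. A 153-nt form that extends the 69-nt exon by 84 nt at its 5′ end was at 0.236 (FDR 0.0882). The 93-nt exon had the opposite sign, at -0.162 (FDR 0.104). The junction from the 93-nt exon to the exon after the 69-nt exon counts as inclusion in this event. In the event that passed, the same junction counts as skipping of the 69-nt exon, so opposite signs are partly built in. The 153-nt form shares its downstream and skipping junctions with the event that passed, so these events are not independent. Of these EXOC7 events 1 passed, and whether neighbouring exons move together was not tested. An antisense gene, AC018665.1, overlaps the 69-nt exon in GENCODE 29, and the strand setting of the counting is not given in the sources used here.

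**Figure D3:**
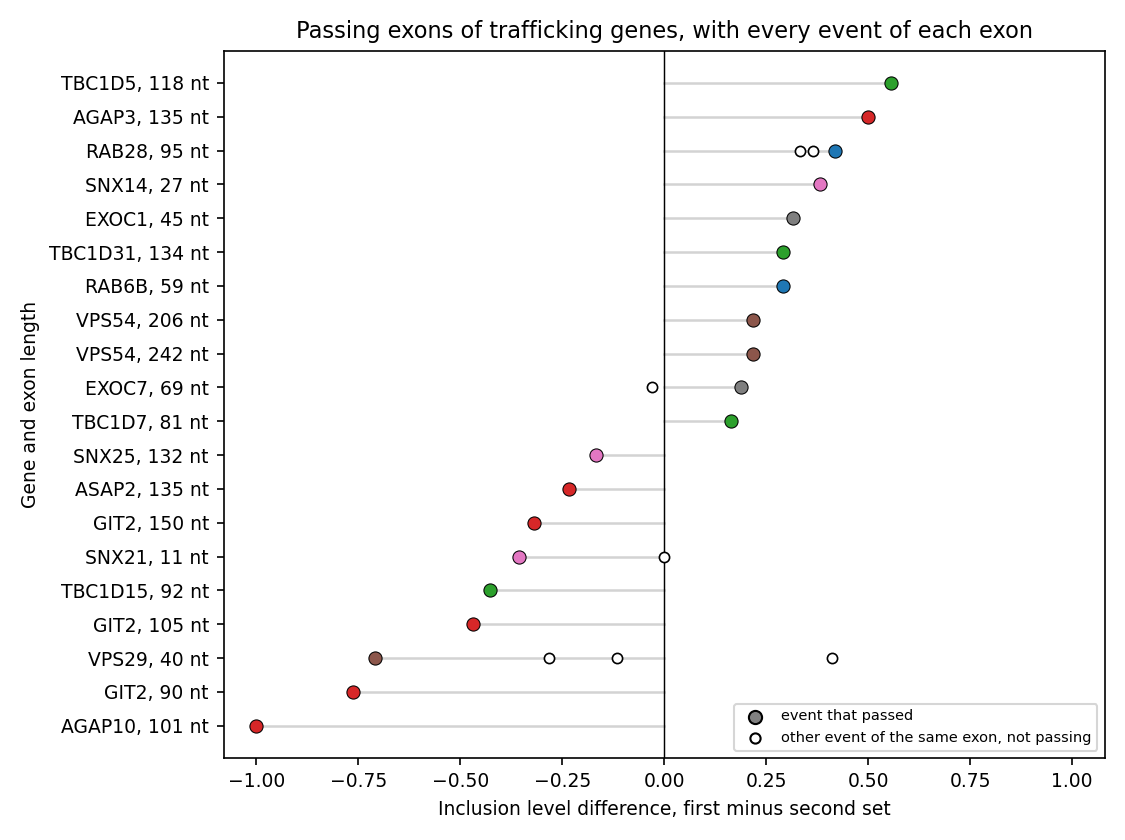
Inclusion level difference (first minus second set) of the 20 passing exons, labelled by gene and length in nt and coloured by gene group (blue Rab GTPases, green TBC1D, red Arf GTPase-activating proteins, brown VPS, pink sorting nexins, grey exocyst). Small white circles are other events of the same exon that did not pass: those of RAB28 lie near the passing event, while those of VPS29 range from -0.282 to 0.412.

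The passing exons had some features that the symbol rule did not use, given here without a test. Their median length was 98 nt, beside 114 nt for all member exons and 117 nt for the table. Exons of at most 51 nt were 4 of the 20 (SNX21, SNX14, VPS29 and EXOC1), or 20%, beside 7.25% of member exons and 11.1% of all passing exons of the table. Of the 20, 10 have a length that is a multiple of 3 (50%), beside 42% of member exons and 46% of the table's passing exons. The median intron after the exon was 3684 nt, beside 2233 nt for all members, and the median intron before it 2818 nt, beside 2795 nt. With 20 exons, some of them overlapping, these shares are imprecise.

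Most of the passing exons are already annotated as alternative. GENCODE 29 lists a transcript that joins the neighbours and skips the exon for 14 of the 17 matched passing exons (82.4%), beside 46.9% of the 358 matched member exons and 78.8% of the table's matched passing exons. The 3 without one are the exon of SNX25 and both forms of the VPS54 exon.

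The RBFOX2 element GCATG, searched on the transcript strand within the exon only, occurred in 1 of 17 matched passing exons, that of EXOC7. It occurred in 13.1% of matched member exons and 11.6% of all matched exons of the table, and in 5.45% of the 3084 matched exons of 59 to 79 nt. The longer form TGCATG, which contains it, was in 0 of the 17 and in 3.35% of matched member exons. The introns, where RBFOX2 mainly binds, were not searched, and nothing follows from these counts about its binding.

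**Figure D4:**
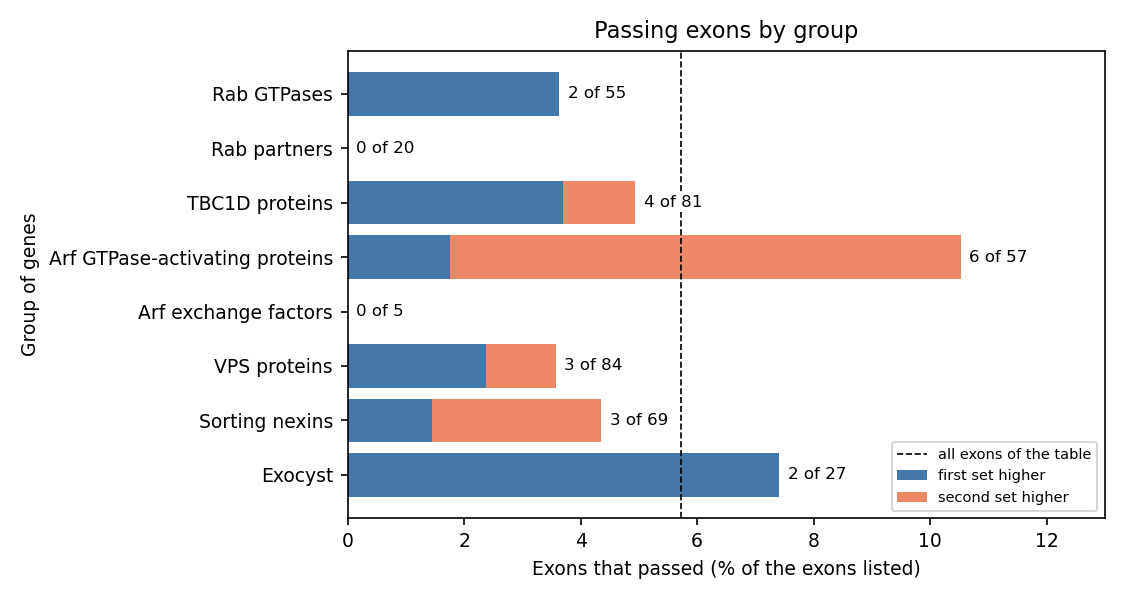
Share of listed exons that passed in each group of genes, in percent, split by the set with the higher inclusion; labels give passing and listed exons and the dashed line marks 5.73%, the share over all exons. The Arf GTPase-activating proteins (6 of 57) and the exocyst (2 of 27) lie above the line and the other groups below it, on few calls each. VPS genes are drawn pooled, and within them GARP (2 of 14) and the retromer (1 of 15) exceed that share. The 2 GARP calls are 2 lengths of 1 VPS54 exon. Of the 6 Arf calls, 3 are in GIT2, 2 of them lengths of 1 exon, and 1, in AGAP10, is uncertain.

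A list of 113 other Rab, Arf and tethering genes gave a similar share. Of these, 97 had events, and 20 of their 318 exons passed (6.29%, beside 5.73% over the table), 8 of them with the first set higher and 12 with the second set higher. GAPVD1, an exchange factor for RAB5, had 4 of these exons, and its 49-nt exon passed in both directions, at -0.248 and 0.306 with different neighbours in the authors' deposited table. MADD, an exchange factor for RAB3 and RAB27, also had exons in both directions, 54 nt at 0.602 and 101 nt at -0.41. The 101-nt exon is the downstream neighbour of the 54-nt exon, and both use the same upstream exon. A junction counted as skipping of the 54-nt exon is counted as inclusion of the 101-nt exon, so these calls are not independent. The lowest p-value of the list was at a 97-nt exon of DENND3, with a difference of exactly -0.5 and an FDR of 1.71e-12.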

How the data were processed

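Junction reads of 4 libraries were summarised by the authors in 1 deposited table, the skipped-exon output of rMATS per the file header. STAR 2.7.3a and the build hg19 are named in the submitters' processing notes; the rMATS version and annotation are not given in the sources used here. The authors deposited a p-value, an FDR and an inclusion difference per event; the FDR equals a Benjamini-Hochberg adjustment over all 31408 events (largest gap 1.11e-16). The 6 columns of values per library name no clone and were not used.

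Members were taken by symbol, grouped by family, and events collapsed to exons by position; an exon passed if any of its events did, with the value of its passing event of lowest p-value. Exons were matched to GENCODE 29 by gene identifier, exon length and both intron lengths, without coordinates. Of 139 gene identifiers, 137 have a current symbol. All passing members are named, at more length the 12 with the lowest p-value (1 per gene) and those in several events. Members, lists and limits were chosen with earlier results of these data known. The call script was tested on simulated data. Python 3.11.15, pandas 2.3.3, numpy 2.4.6 and matplotlib 3.10.9 were used.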

Additional observations from a re-analysis of the deposited data

How the results depend on the processing

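Counts of passing members moved most with stricter limits, by construction. At an FDR under 0.01, 12 events and 12 exons passed, 5 exons with the first set higher, and 13 exons of the other trafficking list. Under a Bonferroni correction over the table these were 6, 6, 2 and 7, and the 6 exons were those of GIT2 (90 nt), AGAP10, ASAP2, RAB28, TBC1D5 and VPS29. At an FDR under 0.01 the member exons that passed were 3%, beside 3.91% of all exons. Under the Bonferroni correction they were 1.5%, beside 1.68% of all exons. With an FDR under 0.1, no minimum difference, a minimum difference of 0.2, differences of exactly 0.5 or 1 left out, a correction for events per exon, or 1 exon per gene, the number of passing member exons ran from 17 to 24. Without AGAP10 it was 19, and with exons that share an end counted once 18; these 2 choices, and leaving out VPS9D1-AS1, which changed nothing, were made after seeing the data. A minimum difference of 0.2 removed the exons of TBC1D7, EXOC7 and SNX25 and left 4.25% of member exons, beside 3.95% of all exons. The shares were 6% beside 6.87% at an FDR under 0.1, and 5.5% beside 6.78% with no minimum difference. Of the 13 passing member exons that are fully coding, 61.5% had a length divisible by 3, beside 57.1% of the table's passing coding exons and 45.5% of all coding member exons.

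No paired analysis was possible because no replicate numbers are attached to the values used. Leaving out each library was not run, because the table's values per library name no clone and were not used, so how far 1 clone decides a call is not shown. The search of flanking introns was not run.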

Other observations

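Among events with a listed difference of 0.1 or more, the share without a call was alike in the trafficking genes and the whole table. Of 121 member events that differed by 0.1 or more in the authors' deposited table, 101 did not pass (83.5%, beside 83.6% over the table), and 230 of all 436 events have a p-value of 1 (52.8%, beside 51.4% over the table). A difference of at least 0.5 without a call was listed for 13 events in 7 genes, and 7 of the 13 are in TBC1D5. The matching share over the whole table is not given here. The TBC1D5 values ran from -1 to 1 among its 11 events, and 9 of these had a p-value of 1. A 65-nt TBC1D5 exon at -0.729 had a p-value of 0.0203 by the authors' rMATS test, with the sign opposite to the passing 118-nt exon. It is the upstream neighbour of the 118-nt exon, and both use the same downstream exon. A junction counted as inclusion of the 65-nt exon is counted as skipping of the 118-nt exon, so these events are not independent. Read counts behind these events were not used here.

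RAB34 had 6 overlapping exons of 79 to 435 nt with a common 3′ end, which therefore share a junction. Their differences in the authors' deposited table lay between -0.074 and -0.069, with p-values from 0.645 to 0.702. SNX22, a small sorting nexin, had no call by the authors' rMATS test, although its 84-nt exon was at 0.5 with an FDR of 0.152. EXOC2, another exocyst subunit, had a 74-nt exon at 0.251 that fell short with an FDR of 0.075, and with another neighbour the same exon was at -0.08 with an FDR of 1.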
